A study of Mus musculus with 8 samples.

Results

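HOXA9 inactivation was followed in immortalised granulocyte-macrophage progenitors (iGMPs) by comparing the 2 libraries of HOXA9 OFF cells with the 2 libraries of uninduced cells, 4 of the 8 libraries of the series. The libraries were chosen by their sample labels alone, and every gene of the count tables was considered. iGMPs are C57Bl/6 mouse bone marrow progenitors transduced with HOXA9 fused to the ligand-binding domain of a mutant estrogen receptor, so that the fusion works in the presence of estradiol and is switched off by its removal, and they also carry a GFP reporter under the lysozyme promoter. Both groups carried the fusion and the reporter and grew with stem cell factor. Uninduced cells were collected at 0 h from medium with 150 ng/ml estradiol, and HOXA9 OFF cells were washed and kept for 48 h without estradiol, and no IPTG is named for either group. The 2 IPTG-treated control libraries, kept for 48 h with 150 ng/ml estradiol and 500 micromolar IPTG, served as a second reference of the same age in culture. The study speaks of RNA-seq tracks of independent sub-clones. The labels do not say which sub-clone or shRNA vector the HOXA9 OFF and control libraries carried. They also do not say what libraries of the same replicate number shared. The p-values rest on a spread estimated from all 8 libraries together, those of CAF-1 OFF cells included. They do not measure the spread of the compared libraries alone. All values describe a transgene-immortalised culture and not progenitors taken from an animal.

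Granulocyte-macrophage progenitors divide rapidly and can become neutrophils or monocytes. HOXA9, together with its cofactor MEIS1, keeps such progenitors in a self-renewing state and blocks their maturation. As neutrophils mature they fill primary granules first, then secondary and tertiary granules, assemble the phagocyte oxidase that makes superoxide, gain receptors for bacterial peptides and chemokines, and leave the cell cycle, while the synthesis of ribosomes, nucleotides and amino acids that supports growth is reduced.

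Gene counts per library were 22217547 and 22423837 in uninduced cells and 20612937 and 22292371 in HOXA9 OFF cells, and 13080 genes passed the filter on low counts. Levels are given as normalised read counts in CPM (counts scaled to a common library size), always for replicate 1 and then replicate 2. Hoxa9 itself was at 234 and 235 CPM in uninduced against 481 and 449.7 CPM in HOXA9 OFF libraries (log2 fold change 0.99 ± 0.12, adjusted p = 0.00032). Estradiol withdrawal inactivates the fusion protein and not its transcript, so this count does not check the labels. The uninduced libraries held the markers of their labelled cell type, with Kit at 638 and 613 CPM, Cd34 at 1872 and 1711 CPM and Mpo at 6449 and 3988 CPM. Among lymphoid markers, the T cell genes Cd3e, Cd3g and Cd8a had no count in any of the 4 libraries, whereas Rag2, Ebf1 and Igll1 of early B cell progenitors were at 41.2 and 66, 88.1 and 107 and 133 and 306 CPM in uninduced cells. The GFP reporter uses a lysozyme promoter, and for it the study cites mice with GFP inserted into the lysozyme gene. Of the annotated lysozyme genes, Lyz2 had no count in uninduced and 0.163 and 0.595 CPM in HOXA9 OFF cells. Lyz1 was at 0.0445 and 0.342 CPM in uninduced against 71.4 and 388 CPM in HOXA9 OFF libraries, higher in replicate 2. Counted in windows of 50 bases, 84.0% of the Lyz1 transcript is not shared with Lyz2 or another annotated gene (the measure used for shared transcripts throughout). Reads of the shared stretch were assigned to neither gene. The cause of the low Lyz2 counts was not tested.

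The 2 HOXA9 OFF libraries stood further apart than those of the other groups used. Of the genes with a group mean of at least 10 CPM, 3.72% differed by 2-fold or more between HOXA9 OFF replicates, against 0.683% between uninduced and 0.807% between IPTG-treated control replicates. The difference had a direction, since 300 genes were at least 2-fold higher in HOXA9 OFF replicate 2 and 30 in replicate 1. At 4-fold the numbers were 97 and 2. Genes of DNA replication and mitosis were higher in replicate 1 (47 of 48 and 63 of 64 members at 10 CPM or more, median log2 ratio of replicate 2 to replicate 1 of -0.41 and -0.42). Lysosomal genes were higher in replicate 2 (46 of 52, median 0.48), and so were monocyte and macrophage markers (14 of 18, median 1.19). In uninduced cells the same medians were -0.10, -0.07, 0.03 and -0.14. Results on these gene groups are therefore given with and without each HOXA9 OFF library, and the cause of the difference between the libraries was not tested.

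**Figure D1:**
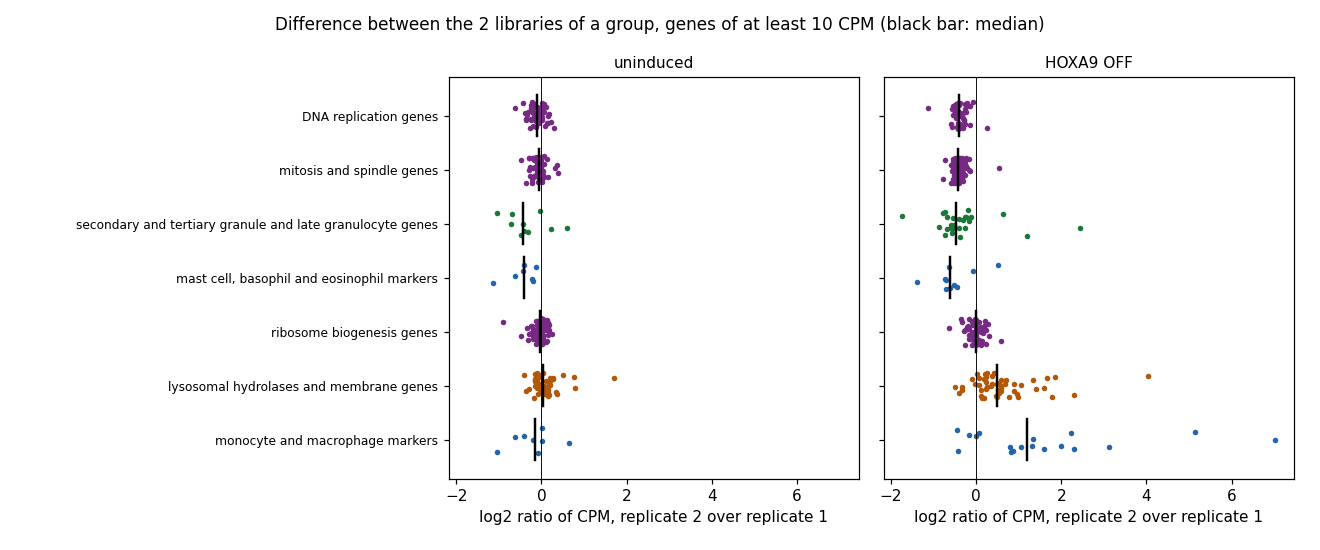
Log2 ratio of replicate 2 to replicate 1 for the members of 7 gene lists at 10 CPM or more (points) with the median (black bar), in uninduced (left) and HOXA9 OFF (right) libraries. Macrophage markers (1.19) and lysosomal genes (0.48) lie to the right in HOXA9 OFF cells but not in uninduced cells, and replication (-0.41) and mitosis genes (-0.42) lie to the left.

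Of the 13080 genes tested, 25.2% were called higher and 22.1% lower in HOXA9 OFF cells, 47.2% in all, where a call needed an adjusted p under 0.05 (edgeR's quasi-likelihood test, p-values adjusted by Benjamini and Hochberg's method over these genes) and a change of at least 1.5-fold. The median log2 fold change was 1.54 among genes called higher and -1.17 among genes called lower, 447 genes rose by at least 16-fold, and 137 fell by as much. From near absence, 118 genes called higher had at most 3 counts in each uninduced library and at least 1 CPM in both HOXA9 OFF libraries, and 38 genes went the opposite way. The median over all tested genes was 0.01, and scaling by library size alone moved it to -0.18. Values below use the trimmed mean scaling, and lists whose direction changes with the scaling are named.

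By level, the 10 largest gains included genes of granules, lysosomes and the cytoskeleton. Chi3l3, a chitinase-like protein secreted by myeloid cells, went from 13.1 and 6.12 CPM to 10068 and 7778 CPM (log2 fold change 9.86 ± 0.75, adjusted p = 3.61e-05, and 10.51 without uninduced replicate 1), and 81.5% of its transcript is not shared with Chi3l4. Thbs1, the adhesive glycoprotein thrombospondin 1, rose 6.04-fold to 10153 and 8145 CPM, and Prg2, the eosinophil major basic protein, rose 12.1-fold to 11637 and 7118 CPM (log2 fold change 3.59, and 4.26 without uninduced replicate 1). The actin monomer binding peptide Tmsb4x rose 5.97-fold, and cytoplasmic actin, Actb, 2.51-fold to 8192 and 8114 CPM. Anxa1, a calcium-dependent membrane binding protein abundant in granulocytes, was at 142 and 104 CPM in uninduced against 2534 and 2129.8 CPM in HOXA9 OFF libraries. The other genes among the 10 largest gains were the lysosomal Psap, Ctsd and Ctsb and the membrane protein Itm2b. Together the 10 took 14.2% of the summed increases over all tested genes.

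The 10 largest losses included chaperones and genes of translation and the mitochondrion. Hsp90ab1, the constitutive cytosolic HSP90 chaperone, fell from 5617 and 4472 CPM to 2562 and 2215 CPM (log2 fold change -1.08 ± 0.15, adjusted p = 0.00049). Ncl, nucleolin, fell from 2219 and 2395 to 787 and 704 CPM, Atp5b, the catalytic beta subunit of ATP synthase, from 2898 and 2717 to 1250.0 and 1282 CPM, and the translation factor Eif5a from 2022 and 1789 to 849 and 821 CPM. Hspa9, the mitochondrial HSP70, fell 3.78-fold. The remaining ones were Ctsg, Cd34, Psat1, Shmt2 and Scd2. The 10 made up 6.28% of the summed decreases.

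**Figure D2:**
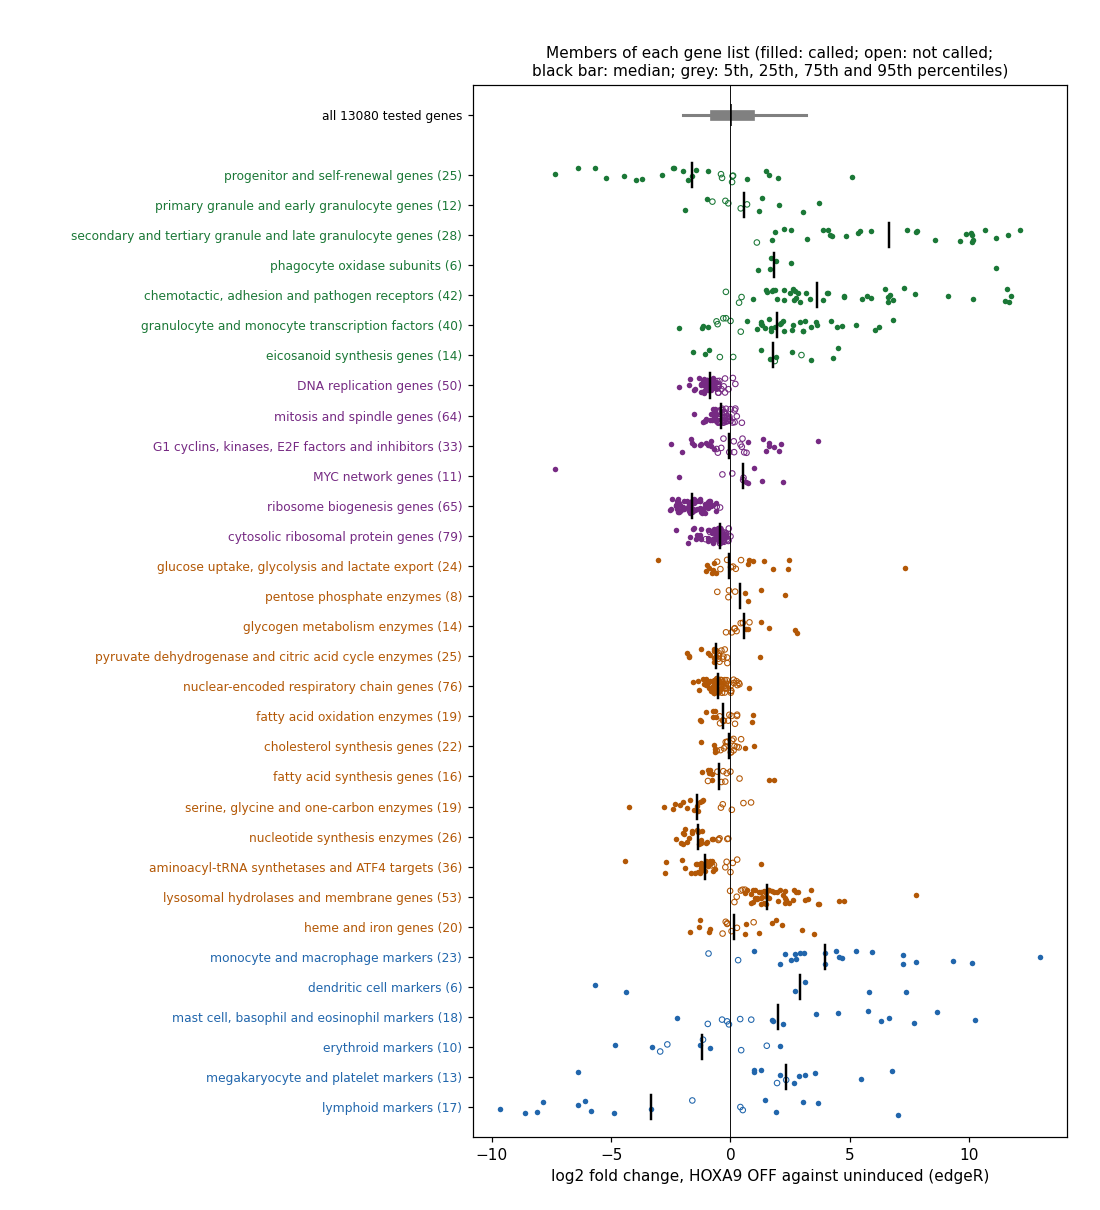
Log2 fold change of HOXA9 OFF against uninduced cells for every tested member of each gene list (filled points called, open points not called), with the list's median as a black bar and the spread of all 13080 tested genes as a grey bar at the top. Late granule genes (median 6.66) and receptors (3.62) lie to the right, and ribosome biogenesis (-1.59) and progenitor genes (-1.59) to the left of 0.

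Among 25 tested progenitor and self-renewal genes, the median log2 fold change was -1.59. Of these, 15 fell, 5 rose and 5 were not called, beside 22.1% and 25.2% of all tested genes that fell and rose. The summed level of the list was 0.537% and 0.557% of counts in uninduced and 0.197% and 0.189% in HOXA9 OFF cells. Kit, the receptor for stem cell factor (chr5:75970941-76052747, mm9), was at 638 and 613 CPM in uninduced against 198 and 167 CPM in HOXA9 OFF libraries (log2 fold change -1.78 ± 0.14, adjusted p = 4.08e-05), so the HOXA9 OFF libraries lay below both uninduced ones. Meis1, the HOXA9 cofactor, was at 37.7 and 53.3 CPM in uninduced against 8.57 and 9.22 CPM in HOXA9 OFF libraries (log2 fold change -2.35 ± 0.25, adjusted p = 0.000142). Sox4, a high mobility group transcription factor of progenitors, was at 79.4 and 106 CPM in uninduced against 2.39 and 6.05 CPM in HOXA9 OFF libraries (log2 fold change -4.44 ± 0.44, adjusted p = 0.000108, and -5.27 without HOXA9 OFF replicate 2), with no overlap between the groups.

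Flt3, the FLT3 ligand receptor, was at 245 and 349.6 CPM in uninduced against 9.28 and 2.43 CPM in HOXA9 OFF libraries (log2 fold change -5.68 ± 0.57, adjusted p = 0.000115, and -6.93 and -5.00 without HOXA9 OFF replicate 1 or 2), and Angpt1, which encodes angiopoietin 1, was at 148 and 112 CPM in uninduced against 4.29 and 2.73 CPM in HOXA9 OFF libraries. Hlf, a PAR bZIP factor of stem cells, fell 15.7-fold, Tal1, a basic helix-loop-helix factor of early haematopoiesis, 3.97-fold, and Myb, the MYB proto-oncogene, 2.74-fold. The N-myc gene Mycn was at 1.20 and 0.898 CPM and had no count in HOXA9 OFF cells, at least 6.45-fold lower. Not every member went down. Cd93, a C-type lectin-like receptor that mature myeloid cells also carry, was at 133 and 161 CPM in uninduced against 346 and 559 CPM in HOXA9 OFF libraries (log2 fold change 1.62 ± 0.22, adjusted p = 0.000476), and Prom1, which encodes CD133, went from 0.401 and 0.599 to 21.4 and 13.1 CPM. Ikzf2 and Lmo4 rose as well, and 3 members in all rose without HOXA9 OFF replicate 1 or with scaling by library size alone.

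The transcription factor genes of the granulocyte and monocyte lineages mostly rose, with a median of 1.97. Of 40 tested, 30 rose and 4 fell, beside 25.2% and 22.1% of all tested genes. Within the C/EBP family, which drives successive steps of granulocyte maturation, the early member Cebpa was at 246 and 270.2 CPM in uninduced against 182 and 163 CPM in HOXA9 OFF libraries (log2 fold change -0.58 ± 0.16, adjusted p = 0.015), and this change was under 1.5-fold and not called, although it was called lower under 12 of 18 alternatives, among them leaving out uninduced replicate 1 (-0.65) or HOXA9 OFF replicate 1 (-0.66). The later members rose. Cebpe, needed for secondary granules, was at 123 and 73.2 CPM in uninduced against 432 and 281 CPM in HOXA9 OFF libraries (log2 fold change 1.86 ± 0.34, adjusted p = 0.00215), Cebpd at 17.7 and 12.3 CPM in uninduced against 146 and 104 CPM in HOXA9 OFF libraries (log2 fold change 3.06 ± 0.29, adjusted p = 9.24e-05) and Cebpb at 49.6 and 49.7 CPM in uninduced against 106 and 137 CPM in HOXA9 OFF libraries (log2 fold change 1.29 ± 0.14, adjusted p = 0.000173), each with both HOXA9 OFF libraries above both uninduced ones.

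Sfpi1, which encodes PU.1, rose from 189 and 145 to 796 and 662 CPM. Irf8, a factor of monocyte and dendritic cell fate, rose from 36 and 27 to 134 and 133 CPM (log2 fold change 2.08 ± 0.34, adjusted p = 0.00124), and Irf4, its relative, from 0.267 and 0.642 to 46.1 and 58.8 CPM (log2 fold change 6.82 ± 0.50, adjusted p = 3.38e-05, and 7.58 without uninduced replicate 2). The Krüppel-like factors Klf2 and Klf6 rose 75.8-fold and 10.4-fold, the inhibitor of DNA binding Id2 38.4-fold, the repressor Bcl6 22.3-fold and Runx1 3.27-fold. Gfi1, a repressor that favours neutrophils over monocytes, fell from 388 and 365 to 207 and 129.9 CPM (log2 fold change -1.16 ± 0.21, adjusted p = 0.00192). Runx2 fell 2.31-fold, and the other 2 lower genes were Cebpg and Myc.

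Of 12 primary granule and early granulocyte genes, 5 rose, 2 fell and 5 were not called, beside 25.2% and 22.1% of all tested genes that rose and fell, with a median of 0.57. Mpo, myeloperoxidase, was at 6449 and 3988 CPM in uninduced against 3625 and 2559 CPM in HOXA9 OFF libraries (log2 fold change -0.76 ± 0.28, adjusted p = 0.0506) and was not called, with both HOXA9 OFF libraries below the uninduced ones. It was called lower under 9 of 18 alternatives, among them leaving out uninduced replicate 2 (log2 fold change -1.06) or HOXA9 OFF replicate 1 (-1.03), and its change was -0.37 without uninduced replicate 1. The neutrophil serine proteases split. Ctsg, cathepsin G, fell from 3431 and 2800.4 to 918 and 752 CPM (log2 fold change -1.90 ± 0.15, adjusted p = 4.61e-05), whereas Elane, neutrophil elastase, was at 462 and 260.1 CPM in uninduced against 738 and 432 CPM in HOXA9 OFF libraries (adjusted p = 0.18) and Prtn3, proteinase 3, at 1451 and 944 CPM in uninduced against 1821 and 1410.2 CPM in HOXA9 OFF libraries (adjusted p = 0.169), and neither was called. Fcnb, ficolin B, rose from 36.7 and 23 to 527 and 250.1 CPM (log2 fold change 3.70 ± 0.41, adjusted p = 0.000189, and 3.07 without HOXA9 OFF replicate 1), and Ctsc, the protease that activates the serine proteases, from 107 and 112 to 463 and 436 CPM. For Mpo, Elane, Prtn3, Ctsg and Fcnb, replicate 1 was above replicate 2 in both groups.

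Of 28 secondary and tertiary granule and late granulocyte genes tested, 27 rose and none fell, with a median log2 fold change of 6.66 beside the 25.2% of all tested genes that rose. With the 3 genes that had at most 3 counts in uninduced cells set to their lower bound, the median was 6.29. Of 29 members tested without HOXA9 OFF replicate 1 or 2, 27 and 26 rose (medians 6.53 and 5.51), and without uninduced replicate 1 or 2, 26 and 26 (medians 5.97 and 5.85). The summed level of this group was 0.0777% and 0.0562% of counts in uninduced and 2.44% and 1.90% in HOXA9 OFF cells. Ngp, neutrophilic granule protein, went from 1.25 and 0.727 CPM to 1186 and 988 CPM (log2 fold change 10.10 ± 0.36, adjusted p = 8.53e-06). Camp, the cathelicidin antimicrobial peptide, was at 0.356 and 0.171 CPM in uninduced against 343 and 259.9 CPM in HOXA9 OFF libraries (log2 fold change 10.13 ± 0.48, adjusted p = 1.26e-05, and 10.72 without uninduced replicate 1), and Ltf, the iron-binding lactoferrin, rose by 11.64 ± 0.37 on the log2 scale. In each of these the HOXA9 OFF libraries were above the uninduced ones by more than the spread between replicates.

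The calprotectin subunits S100a8 and S100a9 reached 2309.6 and 1524 and 1818 and 1125 CPM. Lcn2, which binds bacterial siderophores, was already present in uninduced cells (30.4 and 46.4 CPM) and rose 28.4-fold to 1317 and 868 CPM. The collagenase Mmp8 rose 9.17-fold and the gelatinase Mmp9 171-fold, from 1.78 and 1.11 to 309 and 185 CPM (log2 fold change 7.41 ± 0.54, adjusted p = 3.16e-05). Padi4, the enzyme that citrullinates histones, rose 42.7-fold, the specific granule protein Olfm4 reached 851 and 788 CPM from 0.712 and 0.684 CPM, and Hp, haptoglobin, rose 17.8-fold (log2 fold change 4.16, and 4.77 without uninduced replicate 1). Chi3l1, a secreted chitinase-like protein, had no count in uninduced and 45.7 and 13.3 CPM in HOXA9 OFF libraries, at least 221-fold higher, and at least 99.9-fold from replicate 2 alone. The stefin A genes Stfa2 and Stfa2l1, cysteine protease inhibitors of granulocytes, were among the 5 strongest increases of genes at 50 CPM or more, at 74.5 and 46.6 and 293 and 187 CPM, and 85.3% and 75.1% of their transcripts are not shared with other sequence. Levels per kilobase of exon, which can be compared between genes, placed S100a8 (4889 RPKM, mean of the 2 libraries) and Chi3l3 (5249 RPKM) above Mpo (903 RPKM) in HOXA9 OFF cells, whereas in uninduced cells Mpo was at 1524 RPKM and S100a8 at 6.26 RPKM.

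The promoters of the granule genes were searched for the letters that C/EBP factors bind. Promoter sequences, from 250 bases before to 50 after the annotated start, were taken from RefSeq (GRCm38.p6) and were found for 24 of the 30 late granule genes. The core C/EBP letters TTNNGCAA, searched on both strands, stood in 10 of these 24 (41.7%), in 12.2% of all 27025 promoters and in 10.4% of the 8905 promoters found for tested genes. The Ngp promoter is shown because Ngp went from near absence to an abundant transcript and its promoter holds the letters more than once. It lies at chr9:110419558-110419857 on the plus strand and holds the letters 138 and 11 bases before the start, in capitals below. A match is a description of letters and not evidence of binding.
Ngp: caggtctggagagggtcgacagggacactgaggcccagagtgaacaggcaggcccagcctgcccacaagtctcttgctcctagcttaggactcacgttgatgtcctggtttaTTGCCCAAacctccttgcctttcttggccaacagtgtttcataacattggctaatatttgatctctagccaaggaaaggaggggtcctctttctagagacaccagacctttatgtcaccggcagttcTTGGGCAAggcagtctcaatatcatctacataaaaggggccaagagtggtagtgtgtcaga

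All 6 subunits of the phagocyte oxidase rose, beside 25.2% of all tested genes, with a median of 1.82. Cybb, the catalytic gp91phox subunit, went from 0.312 and 0.171 to 721 and 391 CPM (log2 fold change 11.14 ± 0.83, adjusted p = 3.45e-05). Its membrane partner Cyba was already at 372 and 251 CPM in uninduced cells and rose 3.13-fold. The cytosolic subunits Ncf1 and Ncf4 rose 5.75-fold and 3.26-fold, and the small GTPase Rac2 2.23-fold. Before withdrawal the other 5 subunits were thus well expressed (Ncf4, for example, at 127 and 103 CPM), and Cybb alone was near absent.

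Of 42 tested receptors for chemoattractants, adhesion and pathogens, 39 rose, beside 25.2% of all tested genes, and none fell. The median of the list was 3.62, and 3.60 and 3.40 without HOXA9 OFF replicate 1 or 2. Itgam, the CD11b integrin chain (chr7:135206154-135271674, mm9), was at 22.2 and 12.9 CPM in uninduced against 1778 and 1342 CPM in HOXA9 OFF libraries (log2 fold change 6.47 ± 0.56, adjusted p = 5.92e-05), and its partner Itgb2, CD18, rose 17.2-fold. Csf3r, the receptor for granulocyte colony-stimulating factor, was at 37.3 and 35.4 CPM in uninduced against 303 and 214 CPM in HOXA9 OFF libraries (log2 fold change 2.83 ± 0.18, adjusted p = 1.95e-05). The chemokine receptor Cxcr2 was at 1.38 and 1.07 CPM in uninduced against 82.6 and 48.7 CPM in HOXA9 OFF libraries (log2 fold change 5.74 ± 0.38, adjusted p = 2.43e-05), and in all of these the groups did not overlap.

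Several receptors were not detectable in uninduced cells at this depth. Fpr1, a receptor for formylated bacterial peptides, had no count there and 25 and 15.1 CPM in HOXA9 OFF libraries, at least 149.9-fold higher. Its relative Fpr2 was at least 171-fold higher and Tlr8, a sensor of RNA, at least 143-fold, where the bound takes 3 counts in the smaller uninduced library. The complement receptor C5ar1 rose from 0.401 and 0.428 to 70.1 and 109.7 CPM and the chemokine receptor Ccr1 from 2.00 and 1.28 to 212 and 300.2 CPM. Cxcr4, which retains neutrophils in the marrow, rose 3.91-fold but was at 605 and 271 CPM in the 2 HOXA9 OFF libraries and lost its call without uninduced replicate 2 (log2 fold change 1.59, and 1.27 without HOXA9 OFF replicate 1). Also among the 5 strongest increases were C3ar1, the complement C3a receptor (15.5 and 171 CPM, at least 696-fold higher, and at least 116-fold from replicate 1 alone), and Lilrb4, an inhibitory immunoglobulin-like receptor (44.8 and 188 CPM, at least 872-fold higher, 335-fold from replicate 1 alone, with 69.3% of its transcript not shared), both higher in HOXA9 OFF replicate 2. Tlr4, the lipopolysaccharide receptor, was at 82.3 and 63.3 CPM in uninduced against 75.5 and 112 CPM in HOXA9 OFF libraries and was not called.

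Of 14 tested genes of eicosanoid synthesis, 7 rose and 3 fell, beside 25.2% and 22.1% of all tested genes (median 1.77). Alox5ap, the protein that presents arachidonate to 5-lipoxygenase, was at 210.2 and 159 CPM in uninduced against 1203 and 1037 CPM in HOXA9 OFF libraries (log2 fold change 2.60 ± 0.19, adjusted p = 3.16e-05), and Lta4h, which makes leukotriene B4, rose 3.74-fold. Alox5, the 5-lipoxygenase itself, was near absent in every library (0.267 and 0.0428 CPM in uninduced against 0.760 and 0.397 CPM in HOXA9 OFF libraries). Alox15 rose 10.3-fold, the cyclooxygenase Ptgs1 2.41-fold and the prostaglandin E synthase Ptges 22.8-fold, while the cytosolic synthase and cochaperone Ptges3 fell 2.98-fold.

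**Figure D3:**
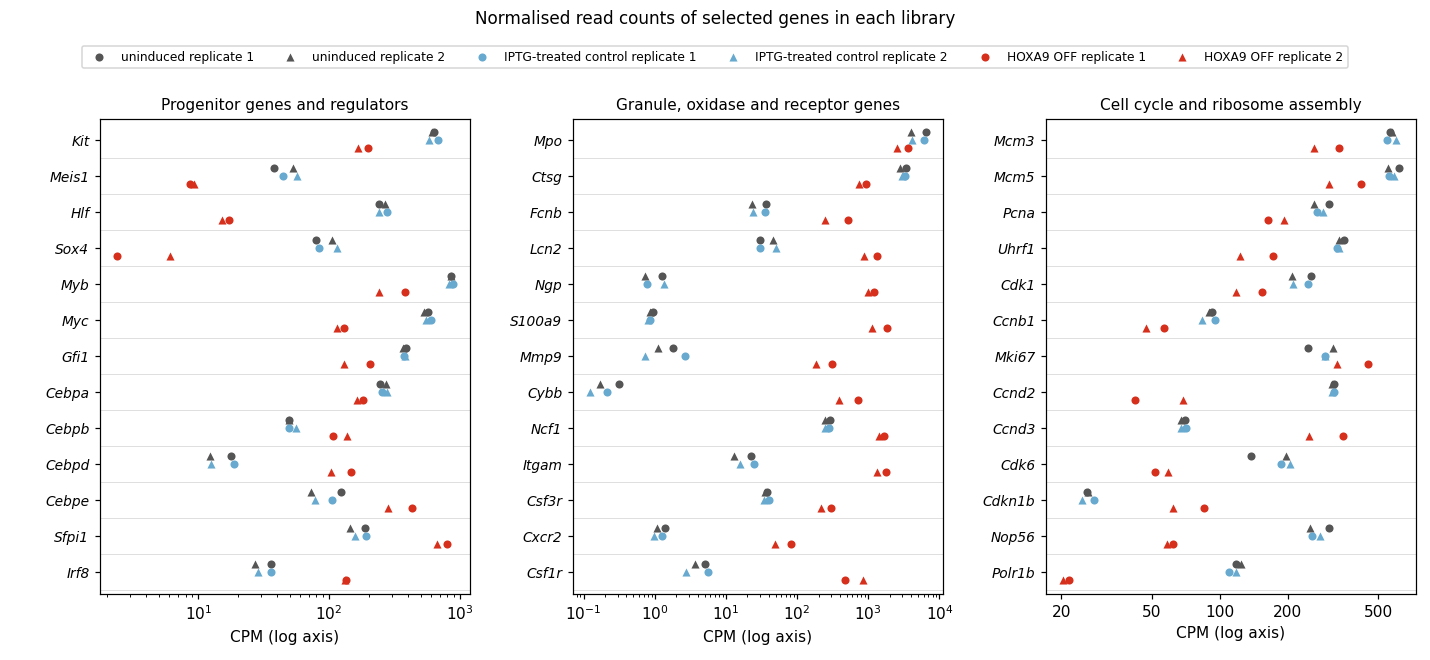
CPM on a log axis of selected genes in each uninduced, IPTG-treated control and HOXA9 OFF library, where colour gives the group and the marker shape the replicate. Ngp, S100a9 and Cybb set HOXA9 OFF libraries far apart from both other groups, whereas for Mpo the HOXA9 OFF libraries (3625 and 2559 CPM) lie just below the lowest of the others (3988 CPM).

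Of 18 tested mast cell, basophil and eosinophil markers, 11 rose, beside 25.2% of all tested genes, and 1 fell, and their summed level went from 0.176% and 0.104% of counts to 1.24% and 0.788%. The genes that rose included those of eosinophil granules and receptors. Epx, eosinophil peroxidase, was at 4.90 and 1.88 CPM in uninduced against 422 and 252 CPM in HOXA9 OFF libraries (log2 fold change 6.64 ± 0.59, adjusted p = 6.59e-05, and 7.47 without uninduced replicate 1), and Il5ra, the interleukin 5 receptor, at 1.02 and 1.24 CPM in uninduced against 32.3 and 19.4 CPM in HOXA9 OFF libraries (log2 fold change 4.51 ± 0.32, adjusted p = 2.96e-05). The eosinophil ribonuclease Ear6 was at 0.0890 and 0 CPM in uninduced against 90.1 and 34.2 CPM in HOXA9 OFF libraries, at least 466-fold higher (256-fold from replicate 2 alone). Ear2 was at 0.267 and 0.0428 CPM in uninduced against 77.7 and 50.6 CPM in HOXA9 OFF libraries, and its log2 fold change of 8.65 became 10.34 without uninduced replicate 1 and 7.87 without uninduced replicate 2, and 62.4% of the Ear2 transcript is not shared with its relatives and its count is uncertain. Each was higher in HOXA9 OFF replicate 1. Prg2 was high before withdrawal. Mcpt8, a basophil protease, fell 4.79-fold. Cpa3, a mast cell carboxypeptidase, was at 155 and 115 CPM in uninduced against 148 and 209.9 CPM in HOXA9 OFF libraries and was not called, and Mcpt4 had no count in the 4 libraries. In bulk RNA a larger share of cells of one type cannot be told apart from more transcript in each cell, and whether the culture held separate eosinophil-like cells was not tested.

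Of 23 tested monocyte and macrophage markers, 21 rose, beside 25.2% of all tested genes, and none fell. The median was 3.96, and 3.95 with 2 genes near absent from uninduced cells set to their lower bound. The summed level of the list was 0.155% and 0.176% of counts in uninduced cells and 0.331% and 0.845% in HOXA9 OFF replicates 1 and 2. It differed 2.55-fold between the HOXA9 OFF libraries. Without HOXA9 OFF replicate 1, 23 of 26 tested rose (median 4.70), without replicate 2, 16 of 23 (median 3.31), and without uninduced replicate 1 or 2, 16 and 15 of 26. The receptor Csf1r, which binds macrophage colony-stimulating factor, was at 5.07 and 3.72 CPM in uninduced against 465 and 853 CPM in HOXA9 OFF libraries (log2 fold change 7.23 ± 0.46, adjusted p = 2.02e-05), high in both HOXA9 OFF libraries. Emr1, the F4/80 antigen, was likewise high in both, with 494 and 437 CPM against 40.6 and 19.3 CPM, and Ly6c2 of inflammatory monocytes rose from 29.4 and 19 to 240.2 and 175 CPM, with 65.9% of its transcript not shared with Ly6c1.

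Genes of tissue macrophages depended on the library. Gpnmb, a glycoprotein of lipid-laden macrophages, was at 78.8 and 2792 CPM in the 2 HOXA9 OFF libraries and 0.712 and 1.80 CPM in uninduced cells, and its log2 fold change of 10.14 became 5.96 without HOXA9 OFF replicate 2. C1qb, a complement C1q chain, was at 0.434 and 121 CPM against 0 and 0.171 CPM, and its call was lost without HOXA9 OFF replicate 2 (log2 fold change 2.24, adjusted p = 0.188) and without either uninduced library. Trem2, a lipid receptor, had no count in uninduced and 10.5 and 95.3 CPM in HOXA9 OFF libraries. Its call held without replicate 2, as did those of Cd68 (2.99 in place of 4.57) and Lgals3 (3.75 in place of 5.26), each with a smaller change. Ccr2, the monocyte chemokine receptor, was at 331 and 522 CPM in uninduced against 165 and 287 CPM in HOXA9 OFF libraries and was called lower only without CAF-1 OFF replicate 1, and Marco had no count in the 4 libraries. F13a1, a coagulation factor subunit, was called higher, from 1037 and 1045 to 1486 and 2606 CPM, and lost its call without either uninduced library or HOXA9 OFF replicate 2 (0.51). The part of the macrophage markers in the granule and lysosome results was not tested.

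Dendritic cell markers were scarce, with 6 of 14 tested, 4 higher and 2 lower, beside 25.2% and 22.1% of all tested genes. Of 7 tested without HOXA9 OFF replicate 2 and 8 without uninduced replicate 2, 2 rose. Their sum was 0.0252% and 0.0369% of counts in uninduced and 0.00207% and 0.00634% in HOXA9 OFF cells, led by Flt3, which is also on the progenitor list. Cd74, the invariant chain, was at 0.178 and 0.0856 CPM in uninduced against 7.05 and 38.8 CPM in HOXA9 OFF libraries, the class II gene H2-Aa had no count in uninduced cells and 0.163 and 0.546 CPM after withdrawal, and Cd209a had no count. Erythroid markers included 1 higher and 4 lower of 10 tested, beside 25.2% and 22.1% of all tested genes, and their sum was lower, from 0.0763% and 0.0689% to 0.0375% and 0.0280%. Car2, carbonic anhydrase 2, fell from 65.2 and 79.7 to 2.28 and 2.83 CPM (log2 fold change -4.82 ± 0.19, adjusted p = 9.93e-06), the globin genes Hba-a1 and Hba-a2 had no count in the 4 libraries, and Gata1, which eosinophils also use, was at 5.30 and 1.84 CPM in uninduced against 19.6 and 10.8 CPM in HOXA9 OFF libraries and lost its call without HOXA9 OFF replicate 1 or uninduced replicate 2. Of 13 megakaryocyte and platelet markers, 10 rose and 1 fell (6 rose without uninduced replicate 2), with a sum of 0.0186% and 0.0166% before and 0.0548% and 0.0576% after withdrawal. Itga2b and Itgb3, the platelet integrin chains, rose 6.39-fold and 4.27-fold, and Vwf, von Willebrand factor, was at 0.651 and 53.6 CPM in the 2 libraries and lost its call without HOXA9 OFF replicate 2 or either uninduced library.

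Of 17 tested lymphoid markers, 9 fell, 5 rose and 3 were not called, beside 22.1% and 25.2% of all tested genes that fell and rose, and the sum went from 0.0433% and 0.070% of counts to 0.0294% and 0.0298%. Of 18 tested, 2 or 3 rose without 1 of the uninduced libraries and 3 without HOXA9 OFF replicate 2. Those that went down included early B cell genes. Rag2, a recombinase subunit, was at 41.2 and 66 CPM in uninduced against 0.163 and 0.0992 CPM in HOXA9 OFF libraries, at least 329-fold lower, and Rag1 went from 2.27 and 8.30 CPM to no count. The early B cell factor Ebf1 was at 88.1 and 107 CPM in uninduced against 1.14 and 1.19 CPM in HOXA9 OFF libraries (log2 fold change -6.38 ± 0.29, adjusted p = 1.19e-05), and the surrogate light chain gene Igll1 at 133 and 306 CPM in uninduced against 1.74 and 5.70 CPM in HOXA9 OFF libraries. The surface antigen Thy1 was at least 100.4-fold lower and the kinase Lck at least 24.7-fold lower (12.6-fold against uninduced replicate 1 alone). Il7r, the interleukin 7 receptor, went the opposite way with 1.25 and 40.2 CPM in the 2 HOXA9 OFF libraries, and its call was lost without replicate 2 and without either uninduced library. Outside the lists, the transcriptional repressor Aebp1 (72.3 and 145 CPM in uninduced against 0.651 and 0.496 CPM in HOXA9 OFF libraries) and the organic cation transporter Slc22a3 (51.3 and 48.9 CPM in uninduced against 0.271 and 0.347 CPM in HOXA9 OFF libraries) were among the 5 strongest decreases of genes at 50 CPM or more.

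Among proliferation genes, those of DNA replication went down, with smaller changes than the ribosome and nucleotide synthesis genes described further on. Of 50 DNA replication genes, 33 fell and none rose, with a median log2 fold change of -0.85 (beside 22.1% of all tested genes that fell), and 48 of 50 values were negative. Without HOXA9 OFF replicate 1, 42 fell (median -1.06), and without replicate 2, 28 (median -0.72). The group took 1.01% and 0.943% of counts in uninduced and 0.572% and 0.426% in HOXA9 OFF cells. Members of the MCM helicase, which unwinds DNA at replication forks, included Mcm2 at 455 and 458 CPM in uninduced against 247 and 182 CPM in HOXA9 OFF libraries (log2 fold change -1.09 ± 0.14, adjusted p = 0.000439) and Mcm3 at 565 and 574 CPM in uninduced against 334 and 261 CPM in HOXA9 OFF libraries (log2 fold change -0.94 ± 0.13, adjusted p = 0.000647). Mcm5 was at 617 and 554 CPM in uninduced against 419 and 302 CPM in HOXA9 OFF libraries (log2 fold change -0.70 ± 0.16, adjusted p = 0.00631) and lost its call without HOXA9 OFF replicate 2 (log2 fold change -0.48). Mcm6 was at 1115 and 727 CPM in uninduced against 733 and 334 CPM in HOXA9 OFF libraries, with replicate 1 above replicate 2 in both groups, and was not called. Its log2 fold change of -0.79 became -1.46 without HOXA9 OFF replicate 1 and -0.33 without replicate 2, and it was called lower under 2 of 18 alternatives.

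The strongest decrease of the list was in Pold2, a DNA polymerase delta subunit, from 183 and 158 to 40.6 and 36.8 CPM (log2 fold change -2.14 ± 0.11, adjusted p = 1.40e-05). Orc2 of the origin recognition complex fell 3.21-fold, the uracil glycosylase Ung 3.38-fold and Uhrf1, which recruits maintenance methylation to new DNA, 2.34-fold. Pcna, the sliding clamp, was at 304 and 260.4 CPM in uninduced against 163 and 193 CPM in HOXA9 OFF libraries (log2 fold change -0.67 ± 0.12, adjusted p = 0.00238) and lost its call without HOXA9 OFF replicate 1 (-0.55) or uninduced replicate 1. The nuclease and helicase Dna2 was at 74.2 and 72.3 CPM in uninduced against 92.0 and 77.2 CPM in HOXA9 OFF libraries and was not called.

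Of 64 mitosis and spindle genes, 20 fell and none rose, with a median of -0.39, beside 22.1% of all tested genes. The count depended on the library used. It was 34 lower without HOXA9 OFF replicate 1, 9 lower and 1 higher without replicate 2, 13 lower without uninduced replicate 1, and 32 lower with scaling by library size alone, and 1 gene was called higher without uninduced replicate 2. Cdk1, the mitotic kinase, was at 253 and 208 CPM in uninduced against 153 and 118 CPM in HOXA9 OFF libraries (log2 fold change -0.76 ± 0.16, adjusted p = 0.00408), and its cyclin Ccnb1 at 92.8 and 89.2 CPM in uninduced against 56.9 and 47.1 CPM in HOXA9 OFF libraries (log2 fold change -0.81 ± 0.13, adjusted p = 0.00102). Ccna2 and Cdc20 fell 1.61-fold and 1.61-fold (log2 fold change -0.69 and -0.69). Their changes without HOXA9 OFF replicate 2 (-0.53 and -0.51) were below 1.5-fold, with adjusted p = 0.00607 and 0.00954. Mybl2, a MYB family factor that activates cell cycle genes, showed the strongest decrease (2.85-fold). Ccnb2 was at 185 and 161 CPM in uninduced against 182 and 139 CPM in HOXA9 OFF libraries (adjusted p = 0.553) and was not called, and the polo-like kinase Plk1 was at 139 and 137 CPM in uninduced against 128 and 98.8 CPM in HOXA9 OFF libraries and was not called.

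Mki67, the proliferation marker Ki-67, was at 245 and 317 CPM in uninduced against 453 and 331 CPM in HOXA9 OFF libraries (log2 fold change 0.48 ± 0.18, adjusted p = 0.0468), below 1.5-fold and not called, and it was called higher without uninduced replicate 2 (0.68) or HOXA9 OFF replicate 2 (0.69). Top2a, topoisomerase II alpha, was at 922 and 839.7 CPM in uninduced against 718 and 539 CPM in HOXA9 OFF libraries (log2 fold change -0.49 ± 0.15) and was called lower without HOXA9 OFF replicate 1 and with scaling by library size alone. For Mki67 the HOXA9 OFF libraries lay above the uninduced ones, and for Top2a below them.

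The promoters of both cell cycle groups held known cell cycle letters at different rates. The E2F letters TTTGGCGC or TTTCCCGC, on either strand, stood in 13 of 41 replication promoters (31.7%), in 4 of 51 mitosis promoters (7.84%), in 1.80% of all promoters and in 3.49% of those of tested genes. The cell cycle homology region TTTGAA stood in 36 of 51 mitosis promoters (70.6%), in 7 of 41 replication promoters (17.1%), in 20.2% of all promoters and in 14.6% of those of tested genes. The Mcm3 promoter, chr1:20820263-20820562 on the minus strand, is shown for the first and the Cdk1 promoter, chr10:69352863-69353162 on the minus strand, for the second, with the letters in capitals. In Mcm3 they lie 20 and 39 bases after the annotated start, and in Cdk1 71 and 15 bases before it.
Mcm3: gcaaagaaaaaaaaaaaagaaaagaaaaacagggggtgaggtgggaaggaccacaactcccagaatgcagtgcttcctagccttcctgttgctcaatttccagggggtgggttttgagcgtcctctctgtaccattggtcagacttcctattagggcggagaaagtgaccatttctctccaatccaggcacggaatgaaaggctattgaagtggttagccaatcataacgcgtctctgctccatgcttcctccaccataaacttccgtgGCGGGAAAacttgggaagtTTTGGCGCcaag
Cdk1: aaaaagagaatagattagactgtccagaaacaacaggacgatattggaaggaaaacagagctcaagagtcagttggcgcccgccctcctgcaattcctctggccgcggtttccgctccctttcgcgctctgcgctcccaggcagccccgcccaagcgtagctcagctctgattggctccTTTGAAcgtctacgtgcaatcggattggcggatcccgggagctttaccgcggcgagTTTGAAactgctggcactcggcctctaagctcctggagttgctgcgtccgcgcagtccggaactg

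Among 33 tested G1 cyclins, kinases, E2F factors and inhibitors, 9 rose and 12 fell, beside 25.2% and 22.1% of all tested genes, with a median of -0.05. The D cyclins, which activate CDK4 and CDK6, moved in opposite directions. Ccnd2 fell from 318 and 313 to 42.3 and 68.8 CPM (log2 fold change -2.51 ± 0.21, adjusted p = 5.07e-05), while Ccnd3 rose from 70.5 and 67.3 to 349.6 and 246 CPM (log2 fold change 2.11 ± 0.17, adjusted p = 4.08e-05). Per kilobase of exon, Ccnd2 was above Ccnd3 in uninduced cells (55.4 against 30.6 RPKM) and below it in HOXA9 OFF cells (9.74 against 132 RPKM). Ccnd1 was low, at 5.03 and 11.8 CPM in uninduced against 1.47 and 2.68 CPM in HOXA9 OFF libraries, and its call was lost without either HOXA9 OFF library or uninduced replicate 2.

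The kinase partners fell, Cdk4 from 839 and 817 to 247 and 287 CPM (log2 fold change -1.63 ± 0.12, adjusted p = 3.55e-05) and Cdk6 from 137 and 196 to 51.7 and 59.1 CPM (log2 fold change -1.59 ± 0.17, adjusted p = 0.000171). Skp2, the ubiquitin ligase subunit that removes p27, fell 2.40-fold. The inhibitor Cdkn1b, which encodes p27, was at 25.9 and 26.3 CPM in uninduced against 85.6 and 62.1 CPM in HOXA9 OFF libraries (log2 fold change 1.5 ± 0.16, adjusted p = 0.000168), and the retinoblastoma gene Rb1 rose 2.57-fold. Cdkn1a, which encodes p21, went down, from 31.7 and 41.1 to 11.6 and 23.8 CPM (log2 fold change -1.04 ± 0.32, adjusted p = 0.0261, and -1.65 without HOXA9 OFF replicate 2), and lost its call without HOXA9 OFF replicate 1 or uninduced replicate 2. The INK4 inhibitor Cdkn2c was at 47.3 and 46.3 CPM in uninduced against 75.3 and 57.9 CPM in HOXA9 OFF libraries and was called higher without HOXA9 OFF replicate 2. Cdkn2d was at 1.51 and 1.24 CPM in uninduced against 5.48 and 3.12 CPM in HOXA9 OFF libraries, and 4.09% of its transcript is not shared with other sequence, so its count is uncertain. The antiproliferative Btg1 and the cyclin Ccng2 of resting cells rose 3.04-fold and 3.57-fold, and E2f2, an activator of the E2F family, rose 4.14-fold. The strongest rise of the list was in Btg2, a relative of Btg1, at 0.134 and 0.813 CPM in uninduced against 3.58 and 8.53 CPM in HOXA9 OFF libraries, and its call was lost without uninduced replicate 1 or HOXA9 OFF replicate 2.

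Myc (chr15:61816946-61821929, mm9), which drives ribosome and nucleotide synthesis genes, fell from 574 and 527 to 129.7 and 115 CPM (log2 fold change -2.17 ± 0.13, adjusted p = 1.67e-05). Of its antagonists, which compete for the shared partner MAX, Mxd1 was at 31.2 and 26.9 CPM in uninduced against 146 and 121 CPM in HOXA9 OFF libraries (log2 fold change 2.20 ± 0.13, adjusted p = 1.88e-05), and Mxd4, Mxi1 and Mnt rose 2.50-fold, 1.99-fold and 1.59-fold. The call of Mnt was lost without HOXA9 OFF replicate 2 and with scaling by library size alone. In all, 5 of 11 tested members of the MYC network rose and 2 fell, beside 25.2% and 22.1% of all tested genes, and 3 rose with scaling by library size alone.

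Nearly every ribosome biogenesis gene went down. Of 65 tested genes, 63 fell, beside 22.1% of all tested genes, and none rose. All 65 log2 fold changes were negative, and the median was -1.59. Without HOXA9 OFF replicate 1 or 2, 62 and 64 fell, and the difference between the HOXA9 OFF libraries seen elsewhere was nearly absent here (median log2 ratio of replicate 2 to replicate 1 of -0.01). The group's share of counts went from 1.51% and 1.54% to 0.455% and 0.445%. Polr1b, a core subunit of RNA polymerase I, which transcribes ribosomal RNA, fell from 118 and 124 to 21.6 and 20.3 CPM (log2 fold change -2.52 ± 0.11, adjusted p = 1.19e-05). Nop56 of the box C/D particles that methylate ribosomal RNA fell from 305 and 250.01 to 62.2 and 58.6 CPM (log2 fold change -2.20 ± 0.13, adjusted p = 1.67e-05), Gnl3, nucleostemin, 5.45-fold, and the nucleolar chaperone Npm1 3.36-fold. The 2 genes not called were Ltv1 and Mphosph10, at log2 fold changes of -0.57 and -0.43.

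Of 79 tested genes of the ribosomal proteins themselves, 22 fell, beside 22.1% of all tested genes, and none rose, with a median of -0.45. Of the abundant members, Rpl4 was at 2786 and 2621 CPM in uninduced against 2324 and 1997 CPM in HOXA9 OFF libraries (log2 fold change -0.32) and Rps3 at 3564 and 2855 CPM in uninduced against 2555 and 2566 CPM in HOXA9 OFF libraries (-0.33), and neither was called. Rps2 fell 1.84-fold, but only 33.8% of its transcript is not shared, and the strongest decrease, in Rpl28, was from 14.1 and 14 to 2.98 and 2.83 CPM. From 14 to 30 members fell when 1 uninduced or HOXA9 OFF library was left out, and 41 fell with scaling by library size alone.

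Of 352 tested metabolic genes, 82 (23.3%) rose and 136 (38.6%) fell, beside 25.2% and 22.1% of all tested genes. The glucose list had 8 higher and 9 lower of 24, with a median of -0.06 that moved to -0.25 with scaling by library size alone. Without HOXA9 OFF replicate 1, 5 fell. Slc2a1, the main glucose transporter of proliferating cells, was at 129 and 115 CPM in uninduced against 52.9 and 96.2 CPM in HOXA9 OFF libraries (log2 fold change -0.71 ± 0.24, adjusted p = 0.0364) and lost its call without HOXA9 OFF replicate 1 (-0.34) or either uninduced library, whereas Slc2a3, the neuronal and leukocyte transporter, rose 2.63-fold. Of the hexokinases, which trap glucose in the cell, Hk2 was at 118 and 110.1 CPM in uninduced against 235 and 205 CPM in HOXA9 OFF libraries (log2 fold change 0.95 ± 0.11, adjusted p = 0.000226), Hk1 rose 1.65-fold and Hk3, the myeloid form, was at 917 and 709 CPM in uninduced against 1174 and 1041 CPM in HOXA9 OFF libraries and was called higher only without uninduced replicate 1. Pfkfb4, which sets the level of the activator of phosphofructokinase, rose 5.42-fold.

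Ldha, lactate dehydrogenase A, fell from 1436 and 1314 to 515 and 886 CPM (log2 fold change -0.97 ± 0.23, adjusted p = 0.00723), and the enolase Eno1 fell 2.04-fold with only 33.9% of its transcript not shared. Tpi1, triose phosphate isomerase, was at 857 and 749 CPM in uninduced against 350.0 and 597 CPM in HOXA9 OFF libraries and lost its call without HOXA9 OFF replicate 1 and without either uninduced library. Each of these was higher in HOXA9 OFF replicate 2 than in replicate 1. Slc16a1, the lactate exporter MCT1, showed the strongest decrease of the list, from 278 and 287 to 38.5 and 31.3 CPM (log2 fold change -3.02 ± 0.12, adjusted p = 1.11e-05), with near equal replicates. The pyruvate kinase gene Pkm2 was at 1665 and 1354 CPM in uninduced against 1569.8 and 1961 CPM in HOXA9 OFF libraries and was not called. Ldhb, the heart form of lactate dehydrogenase, was near absent, at 0 and 0 CPM in uninduced against 1.47 and 0.595 CPM in HOXA9 OFF libraries, and lost its call without HOXA9 OFF replicate 1 or either uninduced library.

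The pentose phosphate pathway supplies the NADPH used by the oxidase. Of its 8 enzymes, 4 rose, beside 25.2% of all tested genes, and none fell. With scaling by library size alone, 2 rose and 1 fell, and 1 fell without uninduced replicate 2 or HOXA9 OFF replicate 2. G6pdx, the entry enzyme, was at 119.7 and 119 CPM in uninduced against 619.7 and 529.5 CPM in HOXA9 OFF libraries (log2 fold change 2.27 ± 0.17, adjusted p = 3.56e-05), and Pgd, which yields the second NADPH, was at 1109.7 and 1014 CPM in uninduced against 2805 and 2416 CPM in HOXA9 OFF libraries (log2 fold change 1.30 ± 0.12, adjusted p = 7.47e-05). Both oxidative enzymes were high in both HOXA9 OFF libraries. Of the non-oxidative enzymes, Tkt was at 1862 and 1555 CPM in uninduced against 2078 and 1843 CPM in HOXA9 OFF libraries and was not called, and Taldo1 rose 1.53-fold but not without uninduced replicate 2 or HOXA9 OFF replicate 1.

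Of 14 glycogen enzymes, 6 rose, beside 25.2% of all tested genes, none fell and 8 were not called. Pygl, the phosphorylase that releases glucose from glycogen, was at 88.3 and 60.1 CPM in uninduced against 606 and 432 CPM in HOXA9 OFF libraries (log2 fold change 2.81 ± 0.23, adjusted p = 4.56e-05), high in both HOXA9 OFF libraries. Gyg, the primer protein of glycogen synthesis, rose 3.09-fold and Ugp2, which makes UDP-glucose, 2.47-fold.

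Of 25 genes of pyruvate dehydrogenase and the citric acid cycle, 13 fell, beside 22.1% of all tested genes, and 1 rose, with a median of -0.60. Idh2 and Idh3a, mitochondrial isocitrate dehydrogenases, fell from 688 and 603 to 195 and 188 CPM (log2 fold change -1.75 ± 0.11, adjusted p = 1.86e-05) and from 242 and 229.9 to 70.9 and 68.8 CPM. Suclg2, a succinyl-CoA ligase subunit, fell 3.49-fold and the fumarase Fh1 2.37-fold. The 1 that rose was Idh1, the cytosolic isoform that makes NADPH, from 292 and 233 to 657 and 591 CPM (log2 fold change 1.25 ± 0.15, adjusted p = 0.00032). Cs, citrate synthase, was at 396 and 432 CPM in uninduced against 340.1 and 298 CPM in HOXA9 OFF libraries and Sdha, the flavoprotein of succinate dehydrogenase, at 466 and 503 CPM in uninduced against 347 and 359 CPM in HOXA9 OFF libraries. Their changes (-0.38 and -0.46) were below 1.5-fold, and Sdha was called lower only with scaling by library size alone.

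Of 76 tested nuclear genes of the respiratory chain, 31 fell, beside 22.1% of all tested genes, and 1 rose, with a median of -0.54 and 65 negative values. Their share of counts went from 1.93% and 1.81% to 1.07% and 1.13%. Cyc1, cytochrome c1, fell 2.47-fold, and Ndufa12, a complex I subunit, fell 2.97-fold. The ATP synthase genes Atp5b and Atp5a1 fell 2.22-fold and 1.62-fold. Cox4i1 of cytochrome oxidase was at 941 and 759.6 CPM in uninduced against 705 and 770.4 CPM in HOXA9 OFF libraries and was not called. Scaling by library size alone called 49 lower and none higher, and the 1 that rose, Cox7a2l (1.70-fold), which acts in supercomplex assembly, lost its call there. Of 19 enzymes of fatty acid oxidation, 7 fell and 2 rose, beside 22.1% and 25.2% of all tested genes. Hadh fell 2.35-fold and Eci1 2.39-fold, and the carrier Slc25a20 was among those that rose.

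**Figure D4:**
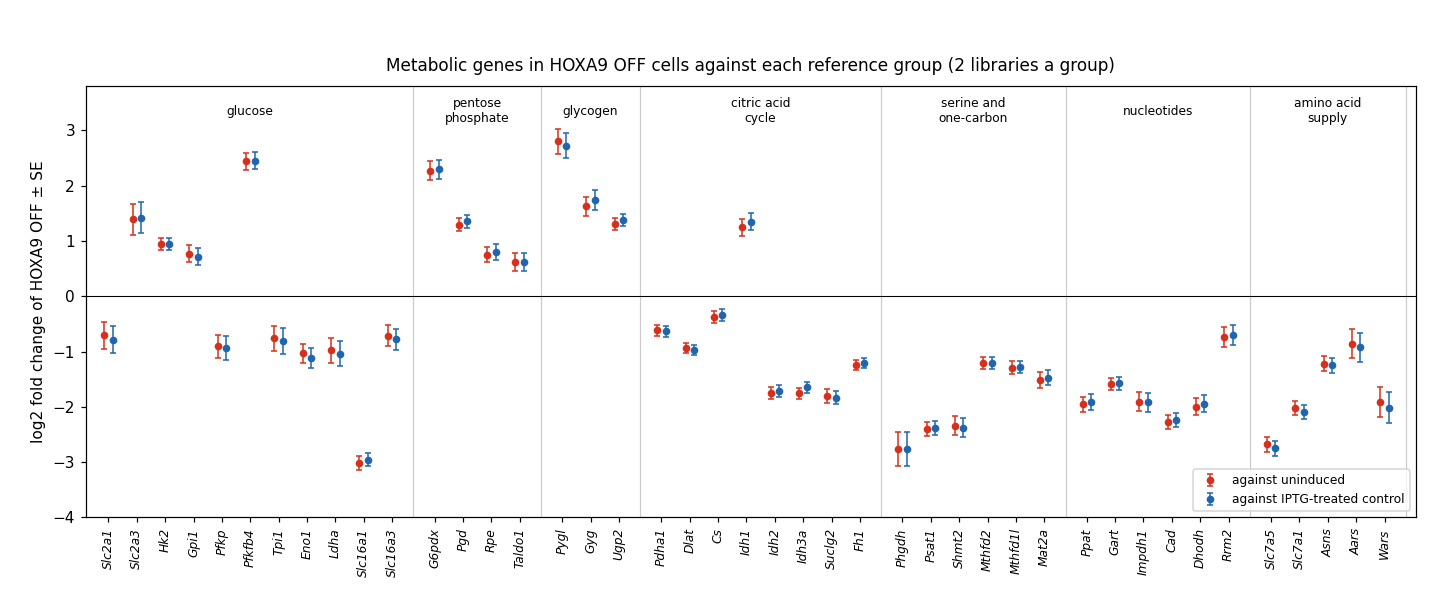
Log2 fold change with its SE for selected metabolic genes in HOXA9 OFF cells, against uninduced and against IPTG-treated control cells. G6pdx (2.27) and Pygl (2.81) lie above 0 and Phgdh (-2.77) and Cad (-2.28) below, with the 2 references close together.

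Transcripts of serine, glycine and one-carbon enzymes were among the most reduced of the metabolic lists (22.1% of all tested genes fell). Of 19 tested genes, 14 fell and none rose, with a median of -1.39 (12 fell and 2 rose without HOXA9 OFF replicate 1), and the share of counts went from 0.496% and 0.487% to 0.120% and 0.143%. Phgdh, the first enzyme of serine synthesis (chr3:98117093-98143913, mm9), fell from 145 and 145 to 14.2 and 28.2 CPM (log2 fold change -2.77 ± 0.31, adjusted p = 0.000184), and Psat1, the second, from 1627 and 1472 to 289 and 299.6 CPM (log2 fold change -2.40 ± 0.12, adjusted p = 1.43e-05). The mitochondrial serine hydroxymethyltransferase Shmt2 fell from 1036 and 987 to 168 and 231 CPM (log2 fold change -2.34 ± 0.17, adjusted p = 3.45e-05), and its cytosolic counterpart Shmt1 4.37-fold. Both Shmt genes were lower in each HOXA9 OFF library than in any uninduced one.

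Mthfd2, the mitochondrial folate enzyme, was at 157 and 175 CPM in uninduced against 68.2 and 75.5 CPM in HOXA9 OFF libraries (log2 fold change -1.21 ± 0.11, adjusted p = 6.98e-05), and Mat2a, which makes S-adenosylmethionine, fell 2.85-fold. Aldh1l2 fell from 3.87 and 21.3 to 0.109 and 1.19 CPM, but differed between uninduced libraries and lost its call without uninduced replicate 2 or HOXA9 OFF replicate 1.

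Of 26 nucleotide synthesis enzymes, 21 fell, beside 22.1% of all tested genes, and none rose. All 26 changes were negative (median -1.34). Cad, which carries out the first steps of pyrimidine synthesis, fell from 418 and 515 to 97.8 and 94.7 CPM (log2 fold change -2.28 ± 0.13, adjusted p = 1.67e-05). In purine synthesis, Ppat, the committed enzyme, fell from 248 and 261 to 73.9 and 57.2 CPM (log2 fold change -1.96 ± 0.14, adjusted p = 3.09e-05), Gart 3.02-fold and Prps1, which makes the ribose phosphate donor, 4.23-fold. Tyms, thymidylate synthase, fell 2.55-fold and Rrm2, ribonucleotide reductase, 1.67-fold. The call of Rrm2 was lost without HOXA9 OFF replicate 2.

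Of 36 aminoacyl-tRNA synthetases and targets of the stress factor ATF4, 28 fell, beside 22.1% of all tested genes, and 1 rose (Cebpb). The median was -1.09. Atf4 itself fell from 534 and 532 to 226 and 334 CPM (log2 fold change -0.93 ± 0.18, adjusted p = 0.00326). Asns, asparagine synthetase, was at 211 and 209.6 CPM in uninduced against 83.4 and 97.1 CPM in HOXA9 OFF libraries (log2 fold change -1.22 ± 0.14, adjusted p = 0.000203), and the amino acid transporters Slc7a5, LAT1, and Slc1a4, ASCT1, fell 6.41-fold and 21.6-fold. Slc1a4 was at 21.1 and 38 CPM in uninduced against 0.760 and 1.93 CPM in HOXA9 OFF libraries, and its log2 fold change of -4.44 became -3.93 without HOXA9 OFF replicate 1 and -5.27 without replicate 2. The pseudokinase Trib3 was at 4.02 and 32.5 CPM in the 2 HOXA9 OFF libraries against 105 and 139.6 CPM, and its call was lost without uninduced replicate 2. Ddit3, CHOP, was at 162 and 177 CPM in uninduced against 71.8 and 138 CPM in HOXA9 OFF libraries and was not called. It was called lower under 6 of 18 alternatives, and its log2 fold change of -0.69 became -0.29 without HOXA9 OFF replicate 1 and -1.24 without replicate 2. Of the synthetases, Wars fell 3.75-fold and Aars 1.81-fold, the latter not without HOXA9 OFF replicate 1 or uninduced replicate 2.

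Promoters were found for 25 of these 36 genes. The amino acid response letters TGATGNAAT or TGATGNAAC, on either strand, stood in 8 of the 25 (32.0%), in 1.95% of all promoters and in 1.17% of those of tested genes. The Asns promoter is shown because Asns is the classic gene with this element. It lies at chr6:7693160-7693459 on the minus strand, and the letters, in capitals, are 23 bases before the start.
Asns: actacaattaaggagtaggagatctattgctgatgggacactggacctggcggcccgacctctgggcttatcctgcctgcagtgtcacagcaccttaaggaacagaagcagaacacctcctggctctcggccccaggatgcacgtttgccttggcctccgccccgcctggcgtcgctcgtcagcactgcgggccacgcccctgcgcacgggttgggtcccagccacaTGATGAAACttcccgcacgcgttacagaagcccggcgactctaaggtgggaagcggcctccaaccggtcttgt

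Of 22 cholesterol synthesis genes, 2 rose and 4 fell, beside 25.2% and 22.1% of all tested genes (median -0.05, and 0.01 and 0.05 without uninduced or HOXA9 OFF replicate 1). There was 1 higher and 1 lower without uninduced replicate 2, and 1 higher and 2 lower without HOXA9 OFF replicate 1. Mvd rose 2.00-fold, and Acat2 fell 2.36-fold with 54.1% of its transcript not shared with Acat3. Of 16 fatty acid synthesis genes, 6 fell and 2 rose, beside 22.1% and 25.2% of all tested genes. Fasn, fatty acid synthase, was at 420.3 and 566 CPM in uninduced against 255 and 317 CPM in HOXA9 OFF libraries (log2 fold change -0.79 ± 0.18, adjusted p = 0.00643), lower in both HOXA9 OFF libraries, but lost its call without uninduced replicate 2 (-0.56). Scd2, a desaturase, fell from 1746 and 2133 to 937 and 1181 CPM, the elongase Elovl6 fell 2.27-fold, and the acetyl-CoA synthetase Acss2 and the elongase Elovl7 rose 3.11-fold and 3.51-fold.

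Of 53 tested lysosomal genes, 47 rose, beside 25.2% of all tested genes, and none fell, with a median of 1.53. Without HOXA9 OFF replicate 1, 48 of 54 tested rose (median 1.72), and without replicate 2, 43 of 53 (median 1.36). The share of counts went from 0.727% and 0.757% to 1.93% and 3.93%, so both libraries were above the uninduced ones while the second was 2.04-fold above the first. Ctsd, cathepsin D, was at 798 and 745 CPM in uninduced against 2458 and 8388 CPM in HOXA9 OFF libraries (log2 fold change 2.81 ± 0.49, adjusted p = 0.00174), and its change was 1.67 without replicate 2. Psap, the precursor of the saposins, was at 3505 and 11044 CPM against 534 and 586 CPM (3.70, and 2.65 without replicate 2), and Ctsb, cathepsin B, at 1228 and 4431 CPM against 219 and 224 CPM (3.67 and 2.47).

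Man2b1, the lysosomal mannosidase, differed less between the HOXA9 OFF libraries and was at 217 and 204 CPM in uninduced against 1461 and 1157 CPM in HOXA9 OFF libraries (log2 fold change 2.64 ± 0.14, adjusted p = 1.45e-05). Lamp1, a major membrane protein of the lysosome, was at 249.6 and 302 CPM in uninduced against 1113 and 1588 CPM in HOXA9 OFF libraries (log2 fold change 2.29 ± 0.22, adjusted p = 9.86e-05), and Lamp2 rose 3.06-fold. Cln3 rose 6.42-fold and Grn, progranulin, 8.75-fold. The strongest rise was in Ctss, the cathepsin of antigen presentation, from 0.890 and 1.80 to 150.1 and 452 CPM.

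The E-box letters CACGTG, the same on both strands, stood in 16 of the 45 lysosomal promoters found (35.6%), in 13 of 57 ribosome biogenesis promoters (22.8%), in 8.09% of all promoters and in 11.7% of those of tested genes. The same letters were thus more frequent than in all promoters both in a list that rose and in a list that fell. The Lamp1 promoter, chr8:13158911-13159210 on the plus strand, is shown because it holds them 61, 45, 28 and 15 bases before the start, in capitals.
Lamp1: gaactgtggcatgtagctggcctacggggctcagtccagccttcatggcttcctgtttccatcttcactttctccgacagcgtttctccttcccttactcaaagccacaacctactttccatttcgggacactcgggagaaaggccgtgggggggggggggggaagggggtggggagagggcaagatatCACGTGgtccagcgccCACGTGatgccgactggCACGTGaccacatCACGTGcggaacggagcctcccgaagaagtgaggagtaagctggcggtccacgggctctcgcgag

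**Figure D5:**
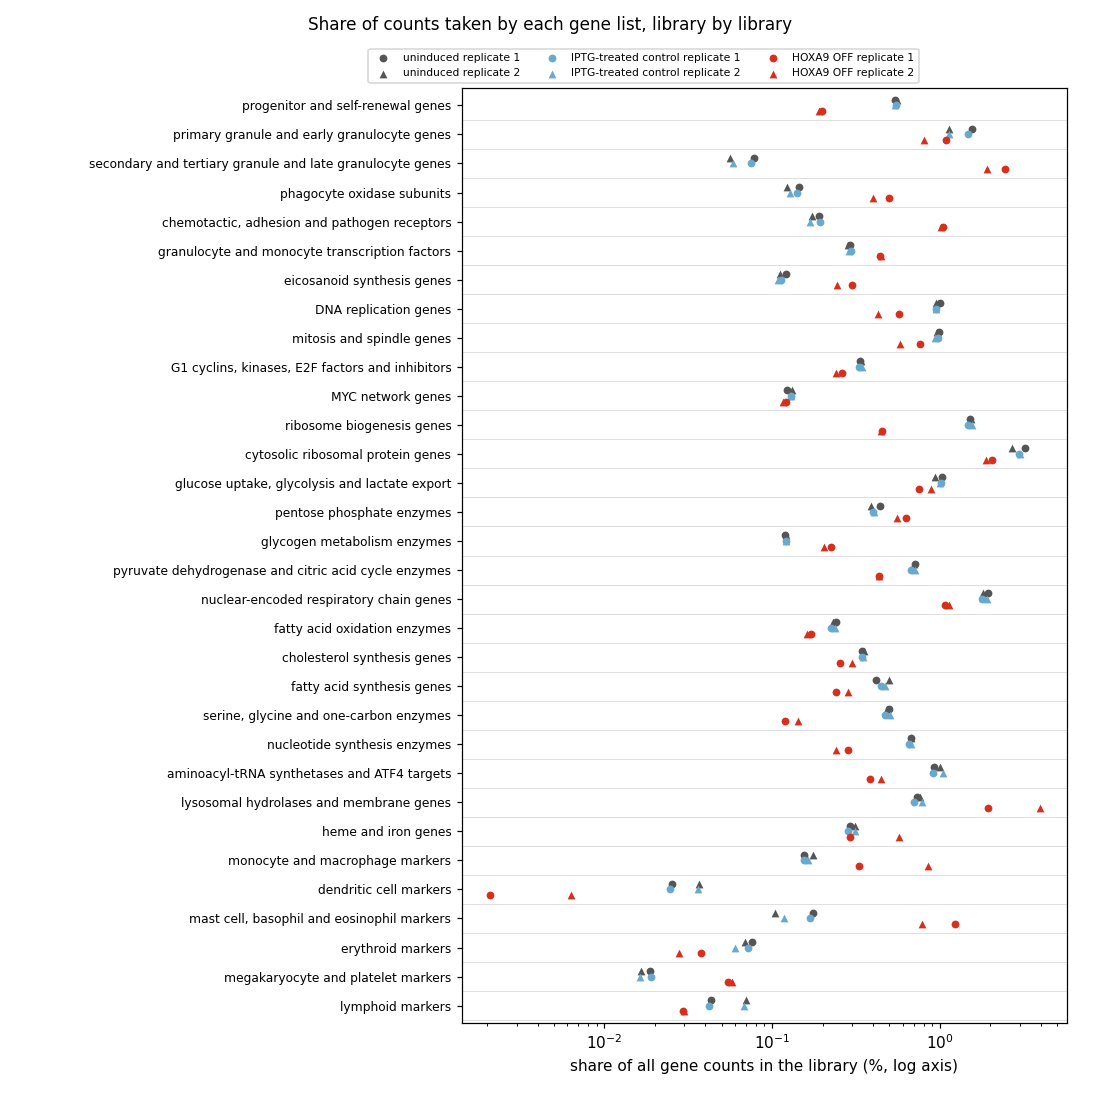
Share of gene counts taken by each gene list in each uninduced, IPTG-treated control and HOXA9 OFF library, on a log axis. Late granule genes go from 0.0777% and 0.0562% in uninduced to 2.44% and 1.90% in HOXA9 OFF libraries, and the HOXA9 OFF libraries separate from each other for lysosomal genes (1.93% and 3.93%) and macrophage markers (0.331% and 0.845%).

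Of 20 tested heme and iron genes, 8 rose and 5 fell, beside 25.2% and 22.1% of all tested genes, with a median of 0.16 that turned to -0.03 with scaling by library size alone or without HOXA9 OFF replicate 2. Alas1, the housekeeping first enzyme of heme synthesis, was at 214 and 137 CPM in uninduced against 809 and 528 CPM in HOXA9 OFF libraries (log2 fold change 1.93 ± 0.30, adjusted p = 0.001), while Alad, the second enzyme, fell 2.48-fold. Hmox1, heme oxygenase 1, was at 12.2 and 21.3 CPM in uninduced against 59.3 and 208 CPM in HOXA9 OFF libraries (log2 fold change 2.99 ± 0.65, adjusted p = 0.00519), and its change was 1.82 without HOXA9 OFF replicate 2. Slc11a1, the phagosomal metal transporter NRAMP1, rose 11.4-fold (log2 fold change 3.51, and 2.92 without HOXA9 OFF replicate 2), and Slc40a1, the iron exporter ferroportin, did not pass the filter on low counts. Tfrc, the transferrin receptor, and Steap3, its ferrireductase, fell 1.84-fold and 3.20-fold. The ferritin gene Fth1 was at 1005 and 1299 CPM in uninduced against 827 and 3700.5 CPM in HOXA9 OFF libraries and was not called with all libraries, but was called higher without HOXA9 OFF replicate 1 (1.68).

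Because uninduced cells were taken at 0 h and HOXA9 OFF cells at 48 h, time in culture and HOXA9 inactivation cannot be told apart in this contrast alone. The IPTG-treated control cells, also at 48 h, showed 0.0% of genes called against uninduced cells by edgeR, with 100 genes at an unadjusted p under 0.05 and 5 called by DESeq2. Against these controls, 46.5% of genes were called in HOXA9 OFF cells, 24.6% higher and 21.8% lower. The contrasts share the HOXA9 OFF libraries, so values are given only side by side. Late granule genes had 27 higher of 28 against either reference, with medians of 6.66 against uninduced and 6.46 against IPTG-treated control cells. Ribosome biogenesis had 63 and 62 lower of 65, with medians of -1.59 and -1.60.

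For DNA replication the counts were 33 and 33 lower, for mitosis 20 and 15, for lysosomal genes 47 and 47 higher, and for serine and one-carbon enzymes 14 and 14 lower. By gene, Kit was at 678 and 576 CPM in the IPTG-treated controls, with log2 fold changes of -1.78 against uninduced and -1.78 against control cells. Ngp was at 0.777 and 1.35 CPM there (10.10 and 9.97), and Myc was at 597 and 549 CPM (-2.17 and -2.23). Phgdh was at 119.5 and 169 CPM (-2.77 and -2.76), and Mki67 was at 292 and 290.3 CPM (0.48 and 0.43), not called against either reference. Cebpa, at 252 and 279 CPM in the controls, was called lower against them (-0.62) and not against uninduced cells.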

How the data were processed

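Directional RNA-seq libraries of iGMPs, 2 of each group, were sequenced, and the authors aligned reads with STAR to mm9 and used HTSeq-count to assign them to genes. Each deposited table holds the raw counts of 1 library, and reads with several alignments were not assigned to genes. Summary lines were left out of all totals. Genes passing filterByExpr over all 8 libraries (13080 of 34199) were scaled by TMM and tested with edgeR 4.0.16 (R 4.3.3) by quasi-likelihood fits on group means, with Benjamini-Hochberg adjustment. The spread was estimated from all 8 libraries together. A call required an adjusted p under 0.05 and a 1.5-fold change. Fold changes are fitted values ± SE. A gene at or below 3 counts in both libraries of a group was given a bound from 3 counts in the smaller library, which covers counting error only. RPKM used exon lengths of GENCODE vM1 (mm9). Gene lists, members and tests were chosen with earlier results of these data known. Named genes were the key genes, the 10 largest gains and losses in CPM, the 5 strongest changes in each direction among genes at 50 CPM or more, and the called members with the highest and lowest fold change of each list, and the other genes named were chosen after their values were seen. A run on simulated counts used few changed genes and equal spread in all groups, unlike these data, and its outcome is not given. Alternatives covered scaling, filtering, thresholds, DESeq2, a replicate block and leaving out each library. Some genes that the naming rule selects are not reported here.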

Additional observations from a re-analysis of the deposited data

Results flagged for a closer look

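Reads that aligned outside annotated genes were used in no comparison. They made up 7.04% and 7.79% of the reads counted in genes, outside genes or in overlapping genes in the 2 HOXA9 OFF libraries, above both uninduced libraries (5.30% and 6.14%). The IPTG-treated control libraries spanned a wider range, 14.6% and 6.88%. Which sequences these reads came from was not tested.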

How the results depend on the processing

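The numbers of genes called against uninduced cells (3293 higher and 2886 lower) stayed within 1.5 times under 16 of 17 alternatives in each direction. With a 2-fold change and an adjusted p under 0.01 they were 2073 and 1506, and against IPTG-treated control cells 1998 and 1492, by the construction of the threshold. Leaving out 1 library gave 2840 to 3267 higher and 2606 to 2926 lower, and against control cells 2725 to 3192 and 2546 to 2862. Scaling by library size alone gave 2715 higher and 3701 lower. Fitting only the compared libraries gave 3081 higher and 2737 lower. DESeq2 called 5 genes higher in IPTG-treated control than in uninduced cells, where edgeR called 0. Without HOXA9 OFF replicate 2, 2 of 257 genes followed singly changed sign, with log2 fold changes of 0.076 for Ccnb2 and -0.48 for Fth1, and the range over single left-out libraries ran from -0.31 to 0.076 and from -0.48 to 1.68.

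With the replicate number as a block, 3365 genes were higher and 2948 lower. Libraries of the same number deviated together in 3 of 6 pairs of groups. The correlations were 0.475 between uninduced and IPTG-treated control cells, 0.301 between uninduced and HOXA9 OFF cells, and 0.316 between IPTG-treated control and HOXA9 OFF cells. Libraries hardly deviated together in the 3 pairs with CAF-1 OFF cells (-0.044, -0.017 and 0.076). The labels give the number no meaning, and with 2 libraries a group what such libraries shared was not tested. The main fit took no account of the number. The depth allowed a floor of 0.134 and 0.128 CPM in uninduced and 0.163 and 0.149 CPM in HOXA9 OFF libraries, below which no fold is given. The biological coefficient of variation was 18.9% over all genes, with 2 libraries a group.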
